A study of Mus musculus with 12 samples.

Results

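The genes described here are snoRNA host genes: 8 noncoding genes (Gas5, Snhg1, Snhg3, Snhg4, Snhg5, Snhg6, Snhg8 and Snhg12) whose introns carry small nucleolar RNAs, or snoRNAs. They were chosen by name. Of the 8, 7 could be matched to one of the 48526 gene rows of the data and 6 had at least 1 read, against 29736 rows with a read in the whole series. Snhg3 was matched but had 0 counts in all 12 libraries, and Snhg4 was paired with no identifier in the annotation tables and was not analysed here. The libraries came from intestinal epithelial cells of 4 female mice aged 3 months, named whole intestine in the sample titles and taken from the proximal small intestine in the extraction protocol. In 2 DKO animals, Kat2a and Kat2b were deleted by tamoxifen (100 mg/kg, injected intraperitoneally on 4 days) and the tissue was taken 2 days after the last dose. The 2 control animals received the solvent, ethanol in corn oil, without tamoxifen. Genotype and tamoxifen therefore changed together and cannot be told apart, and the strain and the Cre driver are not given in the sources used here. Kat2a and Kat2b encode related lysine acetyltransferases that serve as coactivators of transcription. From every animal an input library was made, and further libraries from RNA pulled down by J2 or by K1, antibodies to double-stranded RNA that do not read its sequence, so each of the 6 groups (control and DKO input, J2 and K1) has 2 libraries. The p-values rest on the spread between the 2 libraries of a group, shared over groups and genes. Where pulldown and input were compared, libraries of 1 animal were treated as independent, except with the animal as a block. In bulk RNA of this kind, fewer cells of a type and less RNA per cell cannot be told apart.

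A snoRNA host gene is transcribed and spliced like other genes, and its snoRNAs are trimmed out of the removed introns while the joined exons leave as a separate RNA. Box C/D snoRNAs guide methylation of ribosomal RNA and box H/ACA snoRNAs guide pseudouridylation. Many host genes begin with a terminal oligopyrimidine tract, the start that messenger RNAs of ribosomal proteins also have and that ties translation to growth signals. Their spliced RNAs hold only short reading frames, and several are known substrates of nonsense-mediated decay, the pathway that removes RNAs on which ribosomes stop early. Gas5 was named for its accumulation in cells that stop growing.

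The annotation (GENCODE M21, GRCm38) places 29 snoRNA identifiers inside the 7 matched hosts. Gas5 (ENSMUSG00000053332, chr1:161034422-161038539, plus strand) holds 10, Snhg1 (ENSMUSG00000108414, chr19:8723475-8726443, plus strand) holds 8 and Snhg12 (ENSMUSG00000086290, chr4:132308623-132311024, plus strand) holds 5. Snhg3 (ENSMUSG00000085241, chr4:132348014-132353686, minus strand) and Snhg5 (ENSMUSG00000097195, chr9:88521050-88522929, minus strand) hold 2 each. Snhg6 (ENSMUSG00000098234, chr1:9941959-9944118, minus strand) and Snhg8 (ENSMUSG00000104960, chr3:123507552-123508404, minus strand) hold 1 each. Of the 29, 17 have the letters TGATGA within their first 20 bases and CTGA within their last 15, the textbook C and D boxes read on the snoRNA's own strand: 8 in Gas5, 5 in Snhg1, both in Snhg5, the 1 in Snhg6 and 1 in Snhg12. The snoRNAs of Snhg3 and Snhg8 are of the H/ACA kind by name and hold neither pattern. The following box C/D snoRNAs show what the introns carry, with the boxes in capitals, from the GENCODE M21 transcripts (GRCm38) and 5′ to 3′. Snord47 lies in Gas5 at chr1:161038082-161038158, Snord50a in Snhg5 at chr9:88521529-88521600, Snord87 in Snhg6 at chr1:9942463-9942549 and Snord99 in Snhg12 at chr4:132310691-132310764.
Snord47: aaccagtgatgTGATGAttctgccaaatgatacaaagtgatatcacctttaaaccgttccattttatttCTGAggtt
Snord50a: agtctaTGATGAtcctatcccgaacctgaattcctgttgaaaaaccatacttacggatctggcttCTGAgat
Snord87: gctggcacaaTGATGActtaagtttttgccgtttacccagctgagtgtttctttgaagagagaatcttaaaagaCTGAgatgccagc
Snord99: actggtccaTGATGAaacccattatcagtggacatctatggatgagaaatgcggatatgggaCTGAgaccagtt

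Most of the annotated promoters of the matched hosts hold a pyrimidine run at the start site. In RefSeq (GRCm38.p6) 6 of the 7 matched hosts have 7 annotated promoters, and Snhg4 was left out. Of the 7 promoters, 5 hold a run of at least 5 bases made of C and T. The run begins with C, on the strand that has the same letters as the RNA, within 10 bases of the start site. The same run is found at 30.7% of all 32851 promoters in that table. On the opposite strand it stands at 2 of the 7, against 34.9% of all. The match is a description of the letters and not of translation. The windows of Snhg8 (chr3:123508307-123508356, minus strand), Snhg12 (chr4:132308658-132308707, plus strand) and the Gas5 start nearest its snoRNAs (chr1:161035146-161035195, plus strand) are printed with the run in capitals, from 20 bases before the start to 30 bases after it. The upstream Gas5 start and the Snhg1 start had no run of that length.
Snhg8: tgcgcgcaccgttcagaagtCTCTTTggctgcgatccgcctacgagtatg
Snhg12: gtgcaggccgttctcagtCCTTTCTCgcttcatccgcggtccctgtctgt
Gas5: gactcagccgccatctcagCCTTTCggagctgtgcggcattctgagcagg

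The snoRNAs themselves were almost absent from the counts. Of the 29 identifiers, 28 had 0 counts in all 12 libraries, and Snord87 had 10 counts in all libraries together. Across the files, 27.5% of the 1558 snoRNA rows had a count. The annotation of the hosts includes isoforms that keep introns, and 26 of the 29 snoRNAs lie wholly inside exons of such isoforms. Snord87 does not. Each snoRNA lies on the strand of its host. How the program treated reads that fall on both a snoRNA and its host bears on these zeros, and it was not tested. Counts that ignore strand also do not separate overlapping genes on opposite strands. Snhg3 stands in a similar place: 86.3% of its 986 exon bases are shared with other genes. Gm17300, on the opposite strand, shares 705 of them and had 20 counts in all libraries, and Rcc1 shares 135 and had 2718 counts. The zeros of Snhg3 are therefore not read as absence of its RNA.

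**Figure D1:**
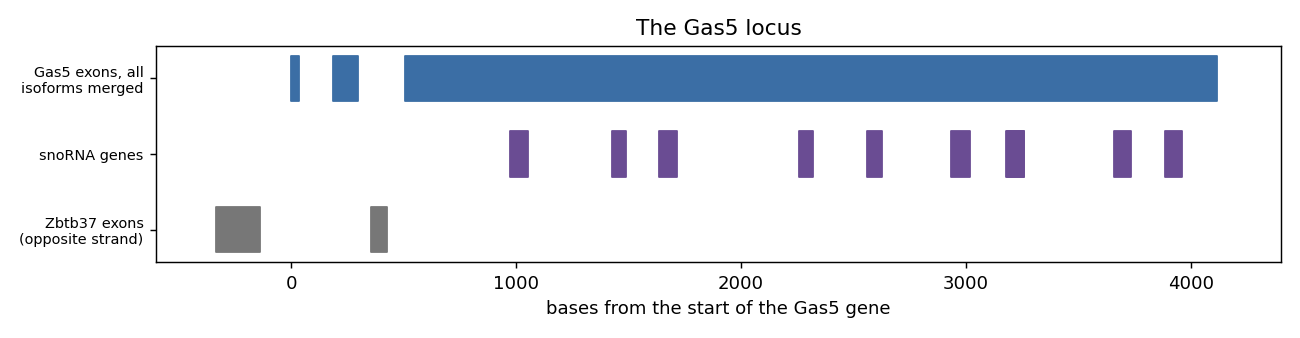
Map of the Gas5 gene, with the distance from its annotated start in bases on the horizontal axis. The top row holds the exons of all isoforms merged, the middle row the snoRNA genes (2 of the 10 identifiers lie at the same place) and the bottom row the exons of Zbtb37 on the opposite strand; the snoRNAs lie inside the merged exons, and no exon base is shared with Zbtb37.

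The libraries differed in depth, which limits these weakly counted genes. Gene counts ran from 10307281 to 11474107 in the input libraries and from 13308021 to 16139531 in the control pulldowns, but only from 2220291 to 5826361 in the DKO pulldowns. The DKO pulldowns also carried more mitochondrial counts (8.76% to 18.6%, against 1.40% to 2.77% in the control pulldowns). DKO replicate 2 stood apart from DKO replicate 1 in both pulldowns: with J2 the chi-square statistic between the pair was 84.4 per degree of freedom over genes, against 9.78 to 43.0 in the other groups. Its pulldowns were the shallowest libraries, with 2691285 gene counts for J2 and 2220291 for K1. Reads without a unique alignment were 29.5% and 46.7% of its listed reads. In DKO replicate 1 they were 15.8% and 25.9%, and in the control pulldowns 5.54% to 6.56%. The targeted genes followed the labels. Kat2b was at 28.6 and 24.7 CPM (counts per unit of library size, the usual CPM scale, after TMM scaling) in control input and at 9.84 and 8.38 in DKO input, a log2 fold change of -1.51 (SE 0.17, adjusted p = 6.32e-04). Kat2a was at 17.7 and 16.4 in control and 7.0 and 10.9 in DKO input (log2 fold change -0.88, SE 0.23, adjusted p = 0.0205). Summed over 8 epithelial markers, all detected, the inputs held 7937 to 10523 CPM. Summed markers of proliferating cells were at 431 and 371 CPM in control input and 115 and 153 in DKO input, where 6 of 7 were called lower. Summed markers of leukocytes were at 108 and 117 against 73.3 and 69.2 CPM, with 5 of 7 tested called lower (2 without control replicate 2).

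In control input Gas5 had the highest CPM of the hosts, at a mean of 14.3 against 7.03 for Snhg8. Per annotated length Snhg8 led. The length merges the exons of all isoforms, including those that keep introns, so this order depends on the annotation. Divided by the kilobases of exon that no other gene shares, Snhg8 stood at 9.73 ± 0.06 CPM per kb (SD, n = 2, as in all groups here). Gas5 followed at 4.63 ± 0.35 CPM per kb, Snhg1 at 2.73 ± 0.26 and Snhg5 at 1.71 ± 0.08, and these neighbours in the order did not overlap between libraries. Snhg6 (1.52 ± 0.05 CPM per kb) and Snhg12 (1.39 ± 0.46) did overlap. In DKO input Snhg8 (7.56 ± 2.54 CPM per kb), Gas5 (3.70 ± 1.03) and Snhg1 (2.50 ± 0.67) kept the leading places, though the ranges of Gas5 and Snhg1 overlapped. Snhg5, at 1.02 ± 0.40 CPM per kb, came last there and overlapped Snhg12. In the control pulldowns Snhg8 again led, at 2.90 ± 0.46 CPM per kb with J2 and 4.37 ± 0.38 with K1. In DKO J2 each host overlapped the next one in the order.

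None of the hosts passed the test between DKO and control in input RNA. Of 15088 genes tested there, 35.9% were called (adjusted p under 0.05, edgeR quasi-likelihood test), 18.8% higher and 17.1% lower in DKO. The 6 hosts tested gave 0 calls (0 with an unadjusted p under 0.05 in edgeR and 0 called by DESeq2), with a median log2 fold change of -0.18, against -0.00097 over all genes. Among the box C/D hosts, Gas5 was at 13.5 and 15.1 CPM in control and 9.17 and 13.7 in DKO, and the ranges overlapped (log2 fold change -0.28, SE 0.22, adjusted p = 0.357). Snhg1 read 6.84 and 5.98 CPM in control and 4.75 and 6.98 in DKO, with the control pair inside the DKO range (-0.08, SE 0.26, adjusted p = 0.829). Snhg5 had the lowest fitted value: 2.63 and 2.81 CPM in control and 1.2 and 2.06 in DKO, without overlap, at a log2 fold change of -0.70 (SE 0.34, adjusted p = 0.154). Snhg6 stood at 1.51 and 1.59 CPM in control and slightly above, at 1.67 and 1.91, in DKO (0.25, SE 0.31, adjusted p = 0.560). Among the hosts of H/ACA snoRNAs, Snhg8 was at 7.0 and 7.06 CPM in control and 4.17 and 6.76 in DKO, and both DKO values lay below the control pair (-0.32, SE 0.27, adjusted p = 0.397). Snhg12 was at 2.07 and 3.32 CPM in control and 2.33 and 3.16 in DKO, so the DKO pair lay inside the control range (0.07, SE 0.33, adjusted p = 0.892). In each of the 6 hosts DKO replicate 1 was the lower of the DKO pair. Without DKO replicate 2, 3 hosts were called lower (Gas5, Snhg5 and Snhg8, at -0.61, -1.18 and -0.72), with DKO then resting on 1 animal.

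**Figure D2:**
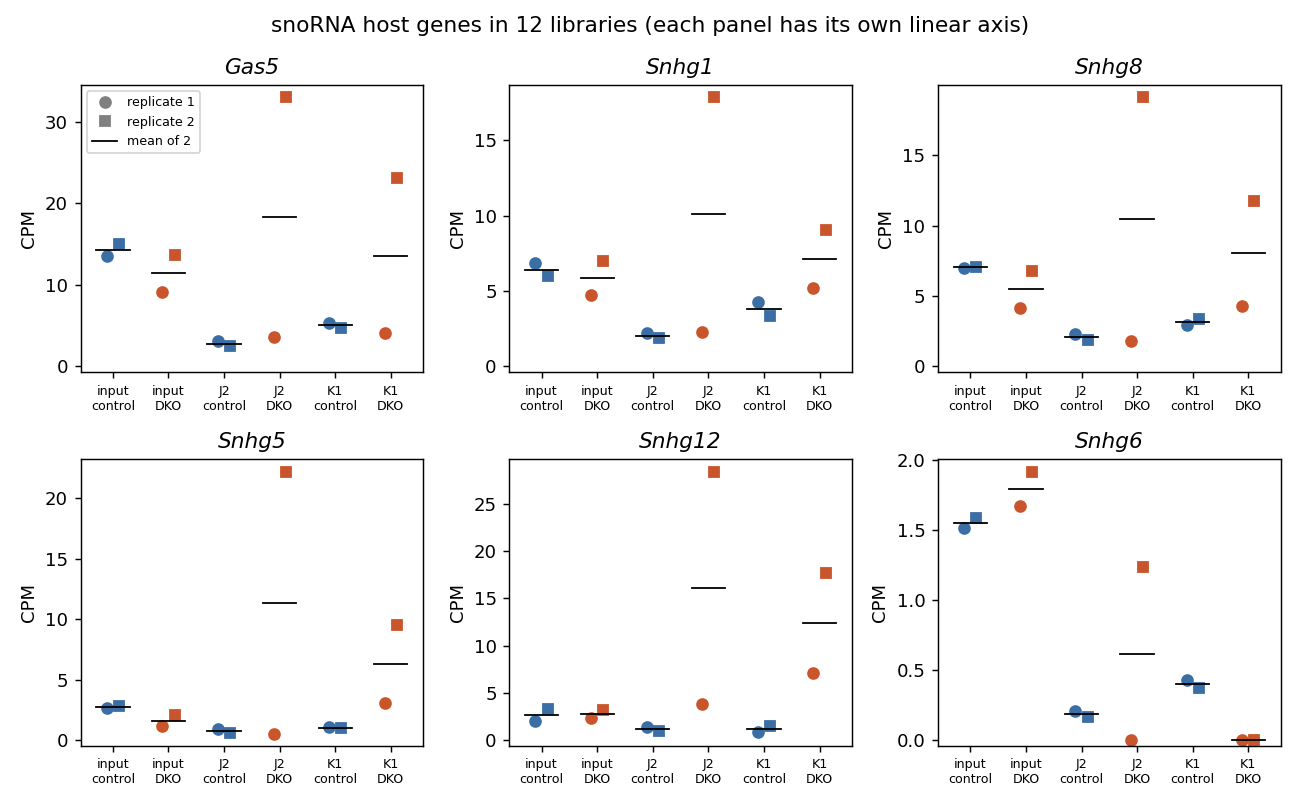
CPM (vertical, a linear axis of its own in each panel) of the 6 detected hosts in the 12 libraries, grouped on the horizontal axis by kind of library and genotype; circles are replicate 1, squares replicate 2 and bars the mean of 2. DKO replicate 2 is the highest J2 library in all 6 panels, at 33.0 CPM for Gas5 against 2.51 to 3.57 in the other J2 libraries.

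In the control animals all 6 hosts had lower fitted values in the pulldowns than in the input. With J2, 29.8% of 15923 genes were called in this contrast, 15.2% higher and 14.6% lower. The hosts had a median log2 difference of -1.80, against -0.07 over all genes, all 6 were below 0, and 1 was called. That was Snhg6, with 5 counts in the J2 pair against 41 in the input pair, 8.35-fold lower with a counting interval of 3.30 to 27.1 (95%, exact), log2 difference -2.98 (SE 0.73, adjusted p = 0.0186). Gas5 stood at 3.09 and 2.51 CPM in control J2, far under the 13.5 and 15.1 of the input, but did not pass (-2.34, SE 0.78, adjusted p = 0.0531). Snhg1 was at 2.20 and 1.86 CPM (-1.65, SE 0.72, adjusted p = 0.117) and Snhg8 at 2.33 and 1.86 (-1.73, SE 0.79, adjusted p = 0.131), again below every input library. Snhg5 was at 0.89 and 0.57 CPM (-1.86, SE 1.15, adjusted p = 0.254) and Snhg12 at 1.44 and 0.97 (-1.14, SE 0.82, adjusted p = 0.324). The SE in this fit is shared with the DKO libraries, and leaving out a DKO animal raised the calls over all genes. The median of the 6 hosts was then -1.92 (without DKO replicate 1) or -1.78 (without DKO replicate 2). The call of Snhg6 was lost without control replicate 1 or control replicate 2, as were the calls of all other genes. With the animal as a block, 2 hosts were called, Snhg6 and Gas5 (adjusted p = 0.0275 for Gas5).

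With K1, 4 of the 6 hosts were called lower than input in the control animals. The contrast called 39.8% of 15908 genes (19.7% higher in K1, 20.1% lower). The median of the hosts was -1.37 against 0 over all genes. Gas5 stood at 5.30 and 4.77 CPM in control K1, below both inputs (log2 difference -1.58, SE 0.53, adjusted p = 0.0356). Snhg8 was at 2.96 and 3.35 CPM (-1.24, SE 0.41, adjusted p = 0.0342), and Snhg5 at 1.05 and 1.04 (-1.45, SE 0.51, adjusted p = 0.0450). Both lay under all of their input values. Snhg6 had 12 counts against 41, 3.83-fold lower with an interval of 1.97 to 8.0 (-1.98, SE 0.46, adjusted p = 0.00804). Snhg1, at 4.26 and 3.35 CPM (-0.82, SE 0.33, adjusted p = 0.0734), and Snhg12, at 0.86 and 1.49 (-1.29, SE 0.51, adjusted p = 0.0686), did not pass. With control replicate 1 or control replicate 2 left out 0 of the 6 were called, while Gas5 was at -1.75 and -1.40. With either DKO animal left out more of all genes were called, so the hosts' calls in those fits are not read. With any 1 animal left out all 6 hosts stayed below 0. Snhg1 ran from -0.92 to -0.74 there and Snhg6 from -2.14 to -1.83. With the animal as a block Snhg1 and Snhg12 passed too (adjusted p = 0.0225 and 0.0196). In one fit of all 12 libraries 1 host was called.

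Short genes were lower in the control pulldowns in general. Over the 4134 genes with at most 2087 exon bases, the median of J2 minus input was -0.65 and -0.64 in the control animals, and over the 4134 genes with at least 6090 exon bases it was 0.47 and 0.48. With K1 the same medians were -0.49 and -0.48, and 0.43 and 0.41. Of the detected hosts, Snhg5, Snhg6 and Snhg8 are among these shorter genes, at 1730, 1146 and 853 exon bases. Gas5, Snhg1 and Snhg12 are longer, at 3760, 2969 and 2402. Genes of 3722 to 6089 exon bases, the range that holds Gas5, had control J2 medians of 0.13 and 0.12. The part of length in the low pulldown values was not tested.

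In the DKO animals the hosts were not uniformly low in the pulldowns. With J2, 25.7% of 15923 genes were called against input, 12.2% higher and 13.4% lower, and 1 of the 6 hosts was called, Snhg12, which was higher. Snhg12 was at 3.82 and 28.4 CPM in DKO J2, both above every input library, with a log2 difference of 2.56 (SE 0.78, adjusted p = 0.0438). The value was 0.74 without DKO replicate 2 (adjusted p = 0.312), and with the animal as a block it was 2.16 (adjusted p = 0.0570). The call was also lost, at values from 2.41 to 2.53, without control replicate 1 (adjusted p = 0.113), without control replicate 2 (0.128) and without TMM scaling (0.110). The other hosts split between the animals. Gas5 was at 3.57 CPM in DKO J2 replicate 1, near the control J2 libraries, and at 33.0 in replicate 2, above every input library (0.69, SE 0.74, adjusted p = 0.512). Snhg1 was at 2.29 and 17.9 CPM (0.78, SE 0.71, adjusted p = 0.431), Snhg8 at 1.78 and 19.1 (0.93, SE 0.78, adjusted p = 0.395) and Snhg5 at 0.51 and 22.2 (2.80, SE 1.08, adjusted p = 0.0901). For these 4 the sign turned without DKO replicate 2, to between -1.33 and -1.02, and Gas5 was then called lower (adjusted p = 0.0162), as was Snhg6 (adjusted p = 0.0181). Snhg6 had 0 and 4 counts in DKO J2 against 46 in the input pair (3.22-fold lower, interval 1.18 to 12.3) and was not called with both animals (adjusted p = 0.174).

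With K1 the DKO animals were closer to each other. Here 35.6% of 15908 genes were called against input, 14.6% higher and 21.0% lower, and 3 of the 6 hosts were called. Snhg12 rose to 7.13 and 17.7 CPM, both above the 2.07 to 3.32 of the input libraries (log2 difference 2.01, SE 0.49, adjusted p = 0.0106). Without DKO replicate 2 it was 1.52 (adjusted p = 0.0536), and in one fit of all 12 libraries 2.11 (adjusted p = 0.0665). Snhg5 rose to 3.09 and 9.51 CPM, also above every input library (1.74, SE 0.55, adjusted p = 0.0314), but the call was lost without control replicate 1 (adjusted p = 0.0816), control replicate 2 (0.0783) or DKO replicate 2 (0.0789), without TMM scaling (0.0928) and in one fit of all 12 libraries (0.224). Snhg6 had 0 counts in both DKO K1 libraries against 46 in the input pair, which at 3 counts per library is at least 1.73-fold lower (adjusted p = 0.00519). Gas5 was at 4.04 and 23.1 CPM, on either side of its input values (0.03, SE 0.57, adjusted p = 0.972), and without DKO replicate 2 it was called lower (-1.27, adjusted p = 0.0204). Snhg1 at 5.23 and 9.06 CPM (0.13, SE 0.38, adjusted p = 0.814) and Snhg8 at 4.28 and 11.8 (0.36, SE 0.45, adjusted p = 0.568) did not pass. The fitted values of Gas5 and Snhg1 turned below 0 without TMM scaling, and neither was called there.

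**Figure D3:**
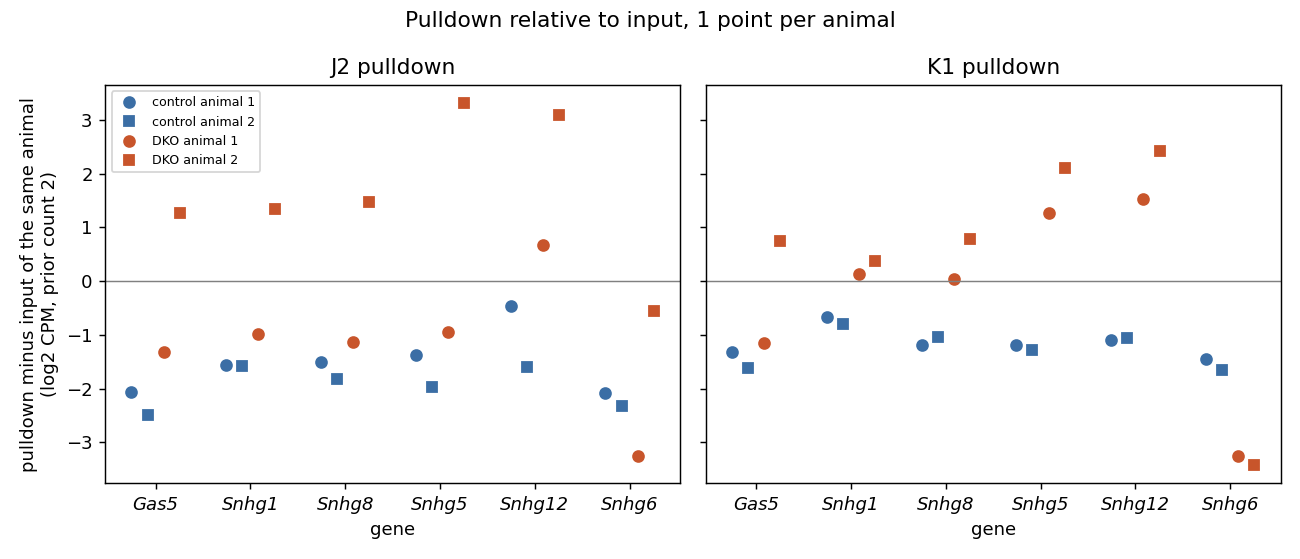
Pulldown minus input of the same animal (vertical, log2 CPM with a prior count of 2) for the 6 detected hosts (horizontal), with J2 left and K1 right and 1 point per animal. Snhg12 lies at -1.59 to -0.47 in the control animals and at 0.67 and 3.09 in the DKO animals with J2, and at -1.10 and -1.06 against 1.53 and 2.41 with K1; Snhg6 stays below 0 in every animal.

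Set directly against the control pulldowns, Snhg12 and Snhg5 were higher in DKO K1. In that contrast 27.1% of 12888 genes passed (13.2% higher in DKO, 13.9% lower). Of the 5 hosts tested, 2 were called, both higher. The 5 had a median log2 fold change of 1.59, against -0.02 over all genes. The filter on low counts keeps a gene that reaches its minimum in 2 libraries. Snhg12 and Snhg5 reached it in both DKO K1 libraries but not in both control K1 libraries. The filter therefore bears on this median and on which hosts were tested. The 2 called hosts entered through the group where they are high. Without the filter, 6 hosts had a median of 1.33, against -0.22 over all genes. Snhg12 was then at 3.37 and Snhg5 at 2.51, and both were called. Snhg12 was at 0.86 and 1.49 CPM in control K1 and at 7.13 and 17.7 in DKO K1, without overlap, a log2 fold change of 3.57 (SE 0.64, adjusted p = 0.00877). It was called under each of the 10 alternatives tried, with values from 2.77, without DKO replicate 2, to 4.17. Snhg5 was at 1.05 and 1.04 CPM in control K1 and at 3.09 and 9.51 in DKO K1, also without overlap (2.72, SE 0.70, adjusted p = 0.0279). It was called under 7 of the 10 alternatives, and it was lost without control replicate 1 (adjusted p = 0.168), without control replicate 2 (adjusted p = 0.160) and in one fit of all 12 libraries (adjusted p = 0.116). Without DKO replicate 2 its value was 1.71 (adjusted p = 0.0395). Gas5 (1.59, SE 0.75, adjusted p = 0.154), Snhg1 (1.06, SE 0.49, adjusted p = 0.149) and Snhg8 (1.5, SE 0.59, adjusted p = 0.0994) were above 0 and did not pass, and Gas5 was at -0.16 without DKO replicate 2. Snhg6 was not tested there for its low counts.

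With J2 no host passed between DKO and control. The contrast called 12.2% of 13181 genes (6.02% higher in DKO, 6.16% lower). Of the hosts, 4 had enough counts to be tested. All 4 were above 0, with a median of 2.62 against 0.03 over all genes. Here too Snhg12 reached the filter's minimum in both DKO libraries but not in both control libraries. Without the filter, 6 hosts had a median of 2.35, against -0.11 over all genes. Snhg12 was at 1.44 and 0.97 CPM in control J2 against 3.82 and 28.4 in DKO J2, without overlap, at a log2 fold change of 3.83 (SE 1.06, adjusted p = 0.0696). Gas5 was at 2.82 (SE 1.06, adjusted p = 0.126), Snhg1 at 2.41 (SE 1.00, adjusted p = 0.151) and Snhg8 at 2.42 (SE 1.09, adjusted p = 0.176). Before adjustment, Snhg12 and Gas5 were under 0.05 in edgeR's fit over all genes (unadjusted p = 0.0133 and 0.0411). DESeq2 called all 4. Without DKO replicate 2, Snhg12 stayed at 1.70, Gas5 was at 0.40, Snhg1 at 0.23 and Snhg8 at -0.18.

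**Figure D4:**
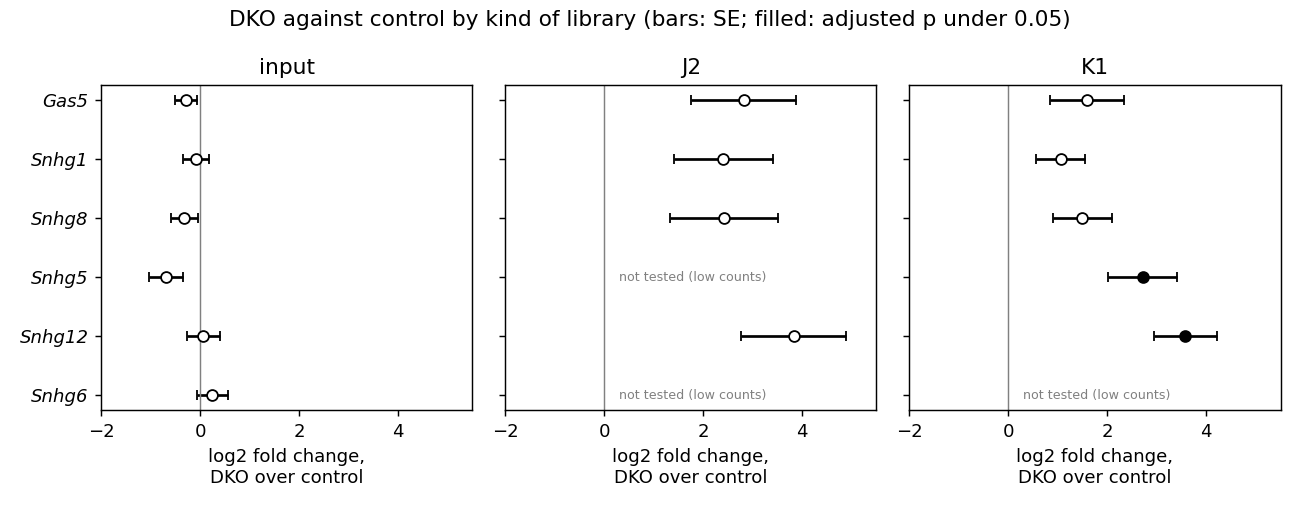
Log2 fold change of DKO over control (horizontal) with its SE for each host tested, in input, J2 and K1 libraries. Filled points have an adjusted p under 0.05. The 6 hosts tested in input sit between -0.70 and 0.25. The 4 tested with J2 and the 5 tested with K1 sit between 1.06 and 3.83, where Snhg12 and Snhg5 with K1 are the filled points. For low counts, Snhg6 was tested in input only and Snhg5 was not tested with J2.

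The change from input to pulldown differed between the genotypes for Snhg12 and Snhg5 with K1. The test of that difference, DKO minus control, called 5.47% of 15908 genes, 1.37% higher and 4.10% lower. Snhg12 had a difference of 3.30 (SE 0.71, adjusted p = 0.0311) and Snhg5 of 3.19 (SE 0.75, adjusted p = 0.0394). Per animal, Snhg12 lay at -1.10 and -1.06 in the control animals and at 1.53 and 2.41 in the DKO animals on the log2 scale, and Snhg5 at -1.18 and -1.28 against 1.27 and 2.11. Both DKO animals were thus above both control animals for each gene, in the same libraries that the test used. The other differences with K1 were 1.61 for Gas5 (SE 0.78, adjusted p = 0.242), 1.59 for Snhg8 (SE 0.61, adjusted p = 0.150) and 0.95 for Snhg1 (SE 0.51, adjusted p = 0.288). Snhg6 was the 1 host with a fitted value below 0 (-5.39, SE 2.08, adjusted p = 0.160), but with its 0 counts in DKO K1 set at 3 per library the difference was 1.20, so its direction was not determined. The median of the 6 hosts was 1.60, also with Snhg6 set at the bound its 0 counts allow, against -0.20 over all genes. Snhg5 was also lost without TMM scaling (adjusted p = 0.0558). Both calls ended without control replicate 1 (adjusted p = 0.584 for Snhg12 and 0.615 for Snhg5) and without control replicate 2 (0.298 and 0.380), where at most 3 of all genes were called, and in one fit of all 12 libraries (0.175 and 0.307). With the animal as a block Snhg8 passed as well (1.61, adjusted p = 0.0310), and 1912 genes were called in place of 870. Without DKO replicate 2 both calls held, at 2.81 for Snhg12 and 2.75 for Snhg5.

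With J2 none of the 6 hosts passed the test of the difference, which called 2.71% of 15923 genes, 0.772% higher and 1.94% lower. The values were 4.66 for Snhg5 (SE 1.57, adjusted p = 0.121), 3.70 for Snhg12 (SE 1.12, adjusted p = 0.0998), 3.03 for Gas5 (SE 1.07, adjusted p = 0.132), 2.67 for Snhg8 (SE 1.11, adjusted p = 0.178), 2.43 for Snhg1 (SE 1.01, adjusted p = 0.177) and 1.37 for Snhg6 (SE 1.21, adjusted p = 0.504). All 6 were above 0, with a median of 2.85 against 0.0019 over all genes, and the first 5 of them had an unadjusted p between 0.0106 and 0.0421. DESeq2 called 2. With the animal as a block 0 of all genes were called in place of 432. Without DKO replicate 2 the median was 0.66, and without DKO replicate 1 it was 3.43.

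Most of the J2 values turned on DKO replicate 2. In DKO J2 the CPM of replicate 2 was 9.25-fold that of replicate 1 for Gas5, 7.80-fold for Snhg1, 10.7-fold for Snhg8, 7.42-fold for Snhg12 and 43.5-fold for Snhg5, the last with 72 counts against 2. Of 16582 genes, 2.77% were higher in replicate 2 by at least the smallest of these 5 gaps. Genes higher in replicate 1 were not counted. With K1 the same ratios were 5.72, 1.73, 2.75, 2.48 and 3.08. Counted in the same direction, 20.6% of genes were higher in replicate 2 by at least the smallest of these gaps. In input DKO replicate 2 was also the higher one, by 1.35-fold (Snhg12) to 1.76-fold (Snhg5). The genes called lower than input in control J2 were, as a set, about as low in both DKO animals, at medians of -1.68 and -1.56 for J2 minus input, against -1.68 and -1.75 in the control animals that chose them. The genes called higher than input in control J2 were less high in DKO, at medians of 0.72 in replicate 1 and 0.26 in replicate 2, against 1.53 and 1.54 in control. With K1 the genes called higher in control were at 0.78 and 0.50 in DKO, against 1.18 and 1.22. Other measures also moved with these libraries. Summed stromal markers (6 genes) were at 3.50 and 19.7 CPM in control J2 and at 174 in replicate 1 and 33.0 in replicate 2 of DKO J2, and with K1 at 2.96 and 38.6 in the control animals against 204 and 79.2 in the DKO animals, where Des was at 0. Summed epithelial markers were at 12023 CPM in DKO J2 replicate 1 and 3474 in replicate 2, and at 13957 and 5905 in DKO K1. Their part in the hosts' values was not tested.

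**Figure D5:**
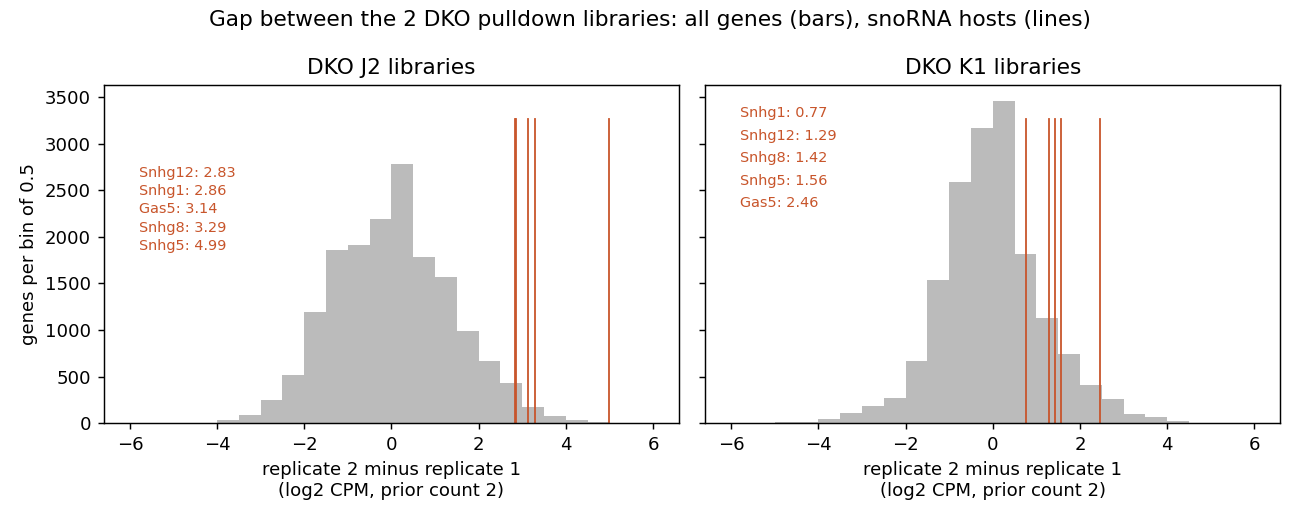
Replicate 2 minus replicate 1 (horizontal, log2 CPM with a prior count of 2) in the DKO J2 (left) and DKO K1 (right) libraries, with the number of genes per bin as bars and 5 hosts as lines; Snhg6, with 0 to 4 counts, is left out, and gaps beyond 6 are drawn in the last bins. With J2 the hosts lie from 2.83 to 4.99, in the upper tail of the genes, and with K1 from 0.77 to 2.46.

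Other noncoding snoRNA hosts were read beside these. Of 12 listed, 9 were matched. In input 6 were tested and 1 was called, Snhg17, with 171 and 144 counts in control and 61 and 70 in DKO (log2 fold change -1.19, SE 0.22, adjusted p = 0.00539), and the call was lost in one fit of all 12 libraries (adjusted p = 0.363). In the K1 difference 1 of 7 was called, Snhg20, at 3.76 (SE 0.95, adjusted p = 0.0478), which had few counts and is named after its values were seen. It was at 1.89 without DKO replicate 2 (adjusted p = 0.137), and was also lost without control replicate 1 (0.584) or control replicate 2 (0.401) and without TMM scaling (0.0596). The median of the 7 was 1.76 with K1 and 2.45 with J2, against -0.20 and 0.0019 over all genes. Snhg18, also outside the rule for naming genes by its counts, went the other way: its counts were 69 and 42 with J2 in control animals but 1 and 1 in DKO animals (-3.75, SE 0.70, adjusted p = 0.0369), where it was the 1 of 7 called. Snhg18 was lost without control replicate 1 (adjusted p = 0.444) and without control replicate 2 (0.292).

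The 12 protein-coding snoRNA hosts listed, with genes for ribosomal proteins and translation factors among them, had calls between DKO and control in 1 direction. This depends on the list. Nop56 also hosts snoRNAs but was listed with the proteins of snoRNA particles, and it was called higher in DKO K1 (2.63, given below). In input 35.9% of all genes were called, 17.1% lower in DKO. Of the 12, 5 were called lower and none higher, among them Rpl3 (-1.11, SE 0.19, adjusted p = 0.00396), a protein of the large ribosomal subunit, Rack1 (-0.86, SE 0.17, adjusted p = 0.00716), a ribosome-bound scaffold, and the elongation factor genes Eef1b2 (-0.61, SE 0.16, adjusted p = 0.0216) and Eef2 (-0.59, SE 0.17, adjusted p = 0.0276). When an animal was left out 3 to 7 of the 12 were called lower, 3 of them without control replicate 1 or control replicate 2, and in one fit of all 12 libraries none was. With K1, 3 of 12 were called lower in DKO than in control (Rack1, Rpl3 and Tpt1, at -1.54, -1.28 and -1.2) and none higher, beside 13.9% of all genes called lower, with a median of -0.78. The median of the 5 noncoding hosts was 1.59, and the lists were not tested against each other. None of the 12 was called there when control replicate 1 or control replicate 2 was left out, 7 were called lower without DKO replicate 2 and 6 without TMM scaling. In control K1 against input, 39.8% of all genes were called, 19.7% higher in K1. Of the 12, 5 were called higher and none lower, and Eef2 had the largest value (1.65, SE 0.35, adjusted p = 0.00433). That count too was 0 when either control animal was left out. In edgeR's tests of the difference between genotypes none of the 12 was called with J2 or K1, where 1 and 3 had an unadjusted p under 0.05 and DESeq2 called 1 in each.

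Genes for the proteins of snoRNA particles were not called in DKO input, where 0 of 15 passed in edgeR or DESeq2 and 2 had an unadjusted p under 0.05 (median -0.24), though 7 were called lower without DKO replicate 2. With K1, 3 of 14 were called higher in DKO than in control and none lower, beside 13.2% of all genes called higher. Nop56, a core protein of box C/D particles that itself hosts snoRNAs, was at 2.63 (SE 0.53, adjusted p = 0.0130) and Ruvbl1, an ATPase that helps assemble the particles, at 1.59 (SE 0.49, adjusted p = 0.0489). One animal or the scaling decided part of this: 1 was called without TMM scaling, without control replicate 1 or without control replicate 2, and 8 without DKO replicate 1. Nop56 was at 1.61 without DKO replicate 2 (adjusted p = 3.12e-04) and Ruvbl1 at 0.86 (adjusted p = 0.0506). In the tests of the difference, Nop56 passed with K1 (2.39, SE 0.58, adjusted p = 0.0435) and Gar1, a core protein of H/ACA particles, with J2 (2.65, SE 0.55, adjusted p = 0.0489), each 1 of 15. Neither call held without TMM scaling (adjusted p = 0.0650 and 0.111) or without control replicate 1 or control replicate 2 (0.639 and 0.350 for Nop56, 0.738 and 0.676 for Gar1). With the animal as a block Gar1 was at 2.6 (adjusted p = 0.0738).

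The factors of nonsense-mediated decay, the pathway that limits several host RNAs, moved both ways in input. Smg8, a partner of the kinase Smg1, was called higher in DKO, at 0.66 (SE 0.16, adjusted p = 0.0172), and the nuclease gene Smg6 lower, at -0.40 (SE 0.12, adjusted p = 0.0343). Without control replicate 1 Smg8 and Smg6 were lost (adjusted p = 0.174 and 0.234), and so was Smg6 without control replicate 2 (0.17). In one fit of all 12 libraries none of the 10 factors tested was called. None of the 10 was called by edgeR in either test of the difference, where 3 with J2 and 1 with K1 had an unadjusted p under 0.05 and DESeq2 called 2 and 0. Of 9 genes of ribosome production and growth, 1 was called higher in input (Bop1, 0.38, SE 0.12, adjusted p = 0.0452) and 1 lower (Ubtf, a factor of ribosomal RNA transcription, -0.50, SE 0.12, adjusted p = 0.0167). Neither passed when control replicate 1 or control replicate 2 was left out (adjusted p = 0.250 and 0.230 for Bop1, 0.0742 and 0.0731 for Ubtf), and without DKO replicate 1, 6 of the 9 were called higher. Myc, the transcription factor that drives ribosome production, was the 1 of 9 called with K1 (1.82, SE 0.48, adjusted p = 0.0313). It was at 0.91 without DKO replicate 2, and the call was lost without TMM scaling (adjusted p = 0.0598), in one fit of all 12 libraries (0.0763) and without either control animal (0.0701 and 0.0974).

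The hosts resembled one another across libraries. Over the 12 libraries, which share their depth and scaling, the log2 CPM of Gas5, Snhg1, Snhg5, Snhg8 and Snhg12 correlated at Pearson's r from 0.70 (Gas5 and Snhg12) to 0.97 (Snhg1 and Snhg8), while Snhg6 ranged from -0.09 (with Snhg12) to 0.54 (with Gas5). Among 9312 other genes with a mean of at least 50 counts, the closest to the mean standardised profile of the 6 hosts were Polr2i (r = 0.959), a subunit of RNA polymerase II, Trit1 (0.952), a transfer RNA modifying enzyme, and Prpf38b (0.951), a splicing factor. The hosts' mean profile was itself highest in DKO J2 replicate 2, at 1.80, and next in DKO K1 replicate 2, at 0.87. All 3 genes peaked in DKO J2 replicate 2 too, which follows from choosing them by that profile. Prpf38b was at 233 CPM there, against 38.2 in DKO J2 replicate 1 and 24.9 to 67.5 in the control inputs and control J2. Zbtb37, the neighbour of Gas5 on the opposite strand, did not share the profile: it was at 63.7 and 58.4 CPM in control J2 and at 10.2 and 22.5 in DKO J2.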

How the data were processed

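The authors deposited 1 table per library, with the raw count of reads in each gene (unstranded, per the labels). The submitters' processing notes name STAR 2.7.10b, HTSeq 2.0.2, UMI-tools 1.1.4, mm10 and GRCm38.p4, with no parameters, so the use of the molecular identifiers is not given. Symbols came from GENCODE M21: 48144 of 48526 identifiers matched without version. Rows that name no gene were left out (18.7% to 61.2% of the listed reads). Tests used the quasi-likelihood method of edgeR 4.0.16 (R 4.3.3) with TMM scaling. Genes were kept by filterByExpr at a minimum of 10 counts, and p-values were adjusted by Benjamini-Hochberg (threshold 0.05). DKO and control were compared in fits of 4 libraries, and pulldown and input, and the difference between genotypes, in fits of 8. The fit code was tested on simulated data for some of the comparisons. Fold changes are log2. Floors use 3 counts, and intervals and floors cover counting error only. The 8 genes and the lists were chosen with earlier results of these data known. The text names all the hosts, and at most 4 called genes of a list in each comparison with a mean of at least 50 counts. The animal names in the labels pair the libraries of an animal: the deviations of input and pulldown correlated at 0.208 to 0.296. One decay factor of the lists is not reported here.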

Additional observations from a re-analysis of the deposited data

Results flagged for a closer look

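In 2 hosts the pulldown relative to input differed between the genotypes by a test of the difference itself, with the antibody K1. The difference, DKO minus control, was 3.30 on the log2 scale for Snhg12 (SE 0.71, adjusted p = 0.0311) and 3.19 for Snhg5 (SE 0.75, adjusted p = 0.0394). Both calls were lost without control replicate 1 (adjusted p = 0.584 and 0.615), without control replicate 2 (0.298 and 0.380) and in one fit of all 12 libraries (0.175 and 0.307), and that of Snhg5 also without TMM scaling (0.0558). For both genes each DKO animal was above each control animal, in the same libraries that the test used, so this adds nothing to the calls. These genes are weakly counted, with means of 30.8 and 22.4 counts over the 8 libraries of the fit.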

How the results depend on the processing

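The hosts were tested under 10 alternatives: no TMM scaling, DESeq2's size factors in edgeR, no filter on low counts, DESeq2's Wald test, one fit of all 12 libraries, a replicate block, and leaving out each of the 4 animals. The cause of each change was not tested, except that an arm left with 1 animal is assumed to vary like the other groups. Calls over all genes also moved when an animal was left out, so the counts of hosts that follow are not results about the hosts alone. With an animal left out, the number of hosts called between DKO and control ran from 0 to 3 in input (reported: 0), from 0 to 5 with J2 (0) and from 1 to 5 with K1 (2). Against input it ran from 0 to 6 for control J2 (1), 0 to 5 for DKO J2 (1), 0 to 6 for control K1 (4) and 2 to 3 for DKO K1 (3). For the difference between genotypes it ran from 0 to 5 with J2 (0) and from 0 to 4 with K1 (2).

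Without the filter on low counts, 5 hosts were called between DKO and control with J2 and 4 with K1, 5 in control J2 against input, 2 in DKO J2 against input, 5 in the J2 difference and 4 in the K1 difference. With DESeq2, 4 hosts were called between DKO and control with J2, 2 in control J2 against input and 2 in the J2 difference. In one fit of all 12 libraries, 5 were called between DKO and control with J2 and 1 with K1, 1 each in control K1 and DKO K1 against input, and 0 in the K1 difference. Without TMM scaling 0 were called in DKO J2 against input and 1 in the K1 difference.

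The animal names pair input and pulldown. With the animal as a block, 2 hosts were called in control J2 against input and 0 in DKO J2 against input, Gas5 turned to -0.12 in DKO K1 against input, and besides the changes given in the report no host's call changed. Control and DKO animals share only a number (deviations correlated at 0.026 in input, -0.088 with J2 and -0.097 with K1). With that number as a block, 1 host was called between DKO and control with J2, Snhg12, at 3.23.

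Fitted values of hosts that changed sign were small or rested on DKO replicate 2. Between DKO and control, with animals left out, Snhg1 in input ran from -0.40 to 0.17, Snhg12 in input from -0.23 to 0.45, Snhg8 with J2 from -0.18 to 3.25 and Gas5 with K1 from -0.16 to 2.44. In DKO J2 against input, Gas5 ran from -1.33 to 1.16, Snhg1 from -1.02 to 1.25, Snhg5 from -1.15 to 3.31 and Snhg8 from -1.19 to 1.39. In DKO K1 against input, Gas5 ran from -1.27 to 0.60 and Snhg8 from -0.050 to 0.64, and in the J2 difference Snhg6 ran from -4.30 to 2.37. Without TMM scaling, Snhg12 in input was at -0.055, and Gas5 and Snhg1 in DKO K1 against input at -0.19 and -0.18.

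Over all genes, leaving out TMM moved the median log2 value to between -0.48 (DKO K1 against input) and 0.0070 (J2 difference). It moved the share of calls that were higher from 52.4% to 42.1% (input), 49.4% to 32.7% (J2) and 48.6% to 27.4% (K1) between DKO and control, from 51.1% to 34.6% and 47.6% to 21.1% for J2 against input in control and DKO, from 49.6% to 35.9% and 41.1% to 22.3% for K1, and from 28.5% to 10.5% and 25.1% to 13.2% in the J2 and K1 differences. With an animal left out, calls over all genes ran from 177 to 8635 (reported: 1606) between DKO and control with J2, from 1149 to 5819 (3487) with K1, from 0 to 6990 (432) in the J2 difference and from 0 to 3802 (870) in the K1 difference.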
